A study of Mus musculus with 8 samples.

Results

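The patatin-like phospholipases and neutral lipases measured here are 10 genes of lipid hydrolysis, read in the liver of *Agpat3* wild-type (WT) and knockout (KO) mice. Of these, 6 encode patatin-like phospholipases (*Pnpla2*, *Pnpla3*, *Pnpla5*, *Pnpla6*, *Pnpla7* and *Pnpla8*) and 4 encode other lipases of neutral lipid (*Lipe*, *Mgll*, *Lipa* and *Lipc*). They were selected on the KO minus WT differences of these arrays, as families with members already known to differ, and their probes were found through the RefSeq transcript each probe is assigned to. Together they had 13 of the 56605 probes without controls, and all 13 passed the filter on dim probes, which left 29069 probes and 14064 named genes. *Pnpla3* passed that filter only through the KO arrays, because its probes were near background in WT liver.

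*Agpat3* encodes an acyltransferase of phospholipid synthesis, known for supplying membranes with docosahexaenoic acid. Total RNA of whole frozen liver was labeled with Cy3 and hybridized to one-color Agilent arrays, with 4 *Agpat3* WT and 4 *Agpat3* KO mice and 1 array for each mouse. All mice were males of the C57BL/6 strain, aged 10 weeks, and the KO was global rather than limited to the liver. Whether the mice were fed or fasted at collection is not given in the sources used here.

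Patatin-like phospholipases share a catalytic domain first known from a storage protein of potato, and they cleave fatty acids from triglycerides or from phospholipids. PNPLA2, LIPE and MGLL act one after the other on the surface of lipid droplets and release the fatty acids of a triglyceride, while LIPA does so inside the lysosome and LIPC outside the cell. In liver these routes supply fatty acids for oxidation, for signaling and for lipoprotein assembly, and PNPLA3 is known for its link to fatty liver in humans.

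A single slide, scanned once, held the 8 arrays. WT livers occupied its row 1 and KO livers its row 2, so slide row and genotype cannot be told apart. *Agpat3* itself had a log2 signal of 5.75 ± 0.11 (SD, n = 4) in WT and -0.38 ± 0.27 in KO liver, a difference of -6.12 (SE 0.14, limma adjusted p = 4.47e-07). A call required a limma adjusted p (Benjamini-Hochberg over all tested probes) under 0.2 together with a difference above 1.5-fold. Hepatocyte markers stood for the labelled tissue: all 9 listed were tested, 0 were called, 0 had an unadjusted p below 0.05, and their summed level ran from 5136 to 5774 in WT and from 5203 to 5530 in KO mice. All levels are expressed against the 75th percentile of the same array, as log2 values for single genes and on a linear scale for sums. In whole tissue, fewer cells of a type and less RNA per cell cannot be told apart.

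The main feature of this family was the pair *Pnpla3* and *Pnpla5*. Both had low signals in WT liver and were higher in every KO mouse, by 3.59 and 3.06 on the log2 scale. These sizes depend on the processing of dim signals. For *Pnpla3*, 3 of 4 WT arrays were not well above background, while *Pnpla5* was well above it on every array but low in WT. The differences were 1.26 and 1.61 with another background correction, normexp with an offset of 50. With dim values raised to the lowest signal well above background, *Pnpla3* was 2.90. That setting could not move *Pnpla5*, which had no dim value. The other 8 genes differed between genotypes by -0.43 to 0.37. Of the 10 genes, 2 were called higher and 0 lower, where 1.01% of all 14064 tested genes were called higher and 0.754% lower. Without a minimum fold, the same fit counted 4 of the 10 as higher (*Pnpla7* and *Lipa* in addition) and 0 as lower, against 1.96% and 2.32% of all tested genes. In 4 of the 10 the KO mice were all above the WT mice, against 3.85% of all tested genes, and in 0 were they all below, against 5.79%. Counted by probe, 3 of the 13 were called higher and 0 lower, against 0.939% and 0.726% of all 29069 tested probes. The genes were selected with this contrast known, so these counts are a description and nothing is read from them. The median difference of the 10 genes was 0.19, and that of all tested genes was -0.03, with a 10th percentile of -0.26 and a 90th percentile of 0.22.

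**Figure D1:**
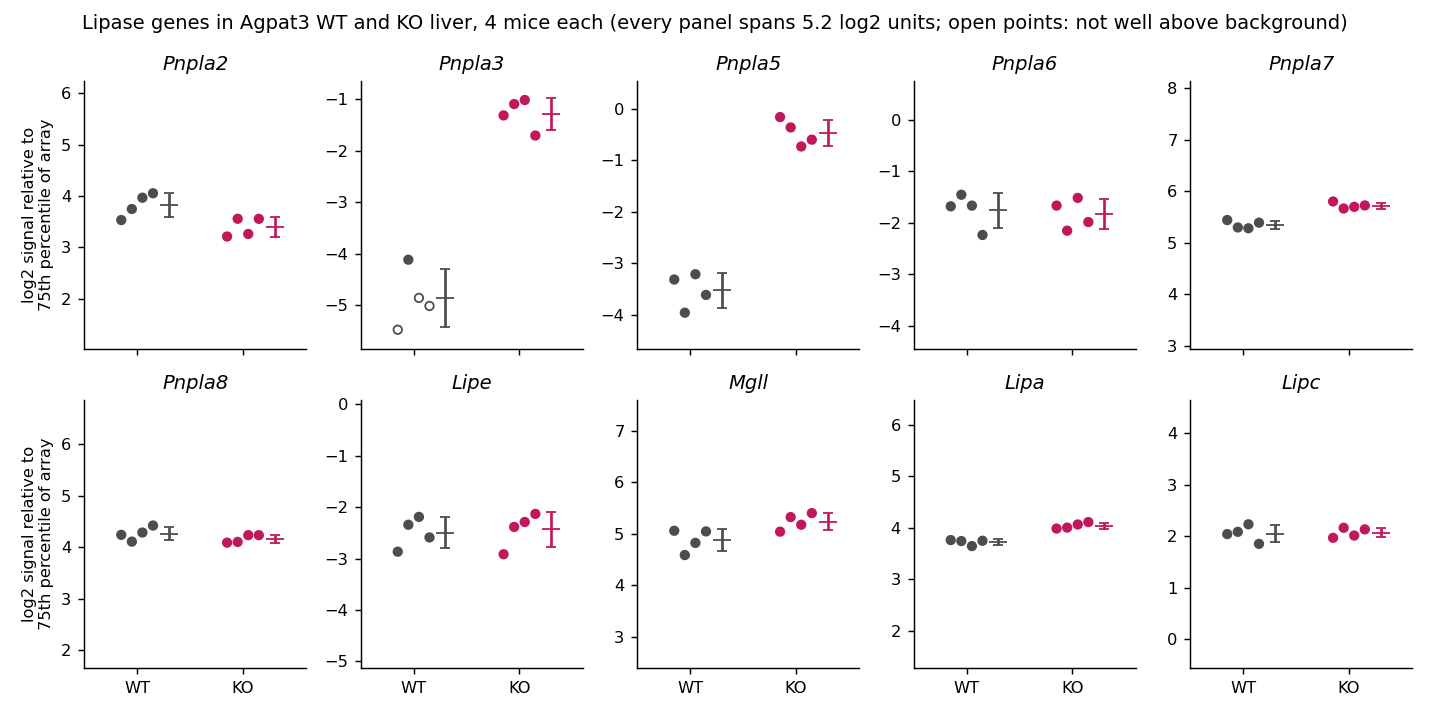
Log2 signal of the 10 lipase genes minus the 75th percentile of the array (vertical axis), in 4 WT (gray) and 4 KO (red) mice, each gene at its brightest probe; bars are mean ± SD and open points are arrays not well above background. *Pnpla3* and *Pnpla5* show the wide gaps, with WT means of -4.87 and -3.53 against KO means of -1.28 and -0.47, and *Pnpla7* and *Lipa* show narrow gaps with no overlap.

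*Pnpla3* and *Pnpla5* are neighbors on chromosome 15 and start on opposite strands. Their promoters are shown because these were the members with large differences. Each window runs from 250 bases before the start of the gene to 50 bases after it, in the RefSeq annotation of GRCm38.p6, and is written 5′ to 3′ on the strand of the gene. The *Pnpla3* window is chr15:84167566-84167865 on the plus strand and the *Pnpla5* window is chr15:84123126-84123425 on the minus strand. Capitals mark the GC box (GGGCGG or its complement CCGCCC), the CCAAT box (here as ATTGG) and the palindromic E-box CACGTG.
Pnpla3: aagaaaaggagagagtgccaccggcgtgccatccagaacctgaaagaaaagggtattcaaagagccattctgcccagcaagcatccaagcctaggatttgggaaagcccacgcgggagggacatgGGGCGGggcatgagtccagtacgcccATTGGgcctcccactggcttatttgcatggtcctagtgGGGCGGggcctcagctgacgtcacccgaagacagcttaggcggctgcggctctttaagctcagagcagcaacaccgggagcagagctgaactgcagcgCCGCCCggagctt
Pnpla5: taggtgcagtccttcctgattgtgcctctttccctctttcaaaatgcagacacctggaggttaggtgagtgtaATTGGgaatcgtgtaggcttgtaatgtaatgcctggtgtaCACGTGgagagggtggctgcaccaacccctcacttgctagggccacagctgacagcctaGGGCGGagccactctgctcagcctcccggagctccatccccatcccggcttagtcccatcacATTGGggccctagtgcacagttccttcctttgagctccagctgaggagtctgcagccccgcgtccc
The *Pnpla3* window held GGGCGG from bases -125 and -61, CCGCCC from base 38 and ATTGG from base -99, counted from the start of the gene. In the *Pnpla5* window, CACGTG began at -137, ATTGG at -177 and -16, and GGGCGG at -78. On either strand, the GC box occurred in 35.7% of all 32851 promoter windows of the table, the CCAAT box in 37.4% and CACGTG in 7.15%. The letters TCACNCCAC, a form of the sterol regulatory element, occurred in 1.24% of all windows and in 0 of the 10 members' windows, which says only that these letters are not in these 300 bases. A shorter E-box pattern, CANNTG, which includes CACGTG, was present in 72.3% of all windows, among them those of *Pnpla3* and *Pnpla5*. Across the 10 genes, the GC box was found in 9 (all but *Pnpla7*) and the CCAAT box in 5 (*Pnpla3*, *Pnpla5*, *Pnpla6*, *Lipa* and *Lipc*). CACGTG was found in 4 (*Pnpla5*, *Pnpla7*, *Lipe* and *Mgll*), and TGTTTAC, a site of forkhead factors present in 3.65% of all windows, in 3 (*Pnpla7*, *Lipe* and *Mgll*). Some members have more than 1 window (*Pnpla6* has 3, and *Lipe*, *Mgll* and *Lipc* have 2 each), which gives them more chances of a match. These are letter matches and not measured binding.

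*Pnpla3* encodes a lipid droplet protein closely related to the triglyceride lipase PNPLA2. At the probe that stands for the gene, the log2 signals in WT mice 1 to 4 were -5.48, -4.12, -4.86 and -5.02, and in KO mice 1 to 4 they were -1.31, -1.09, -1.01 and -1.70. The groups did not overlap, and the gap between them was wider than the range within either. The means were -4.87 ± 0.56 in WT and -1.28 ± 0.31 in KO liver (SD, n = 4 each), a difference of 3.59 (SE 0.28). In intensity units the probe read 6.36, 16.6, 10.6 and 8.08 in WT and 119.8, 129.7, 145 and 84.9 in KO mice. The signal was well above background in all 4 KO mice but only in WT mouse 2, so the difference rests on WT values close to background and no fold is given.

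A second probe of the same *Pnpla3* transcript gave the same ordering of the mice by genotype. Its log2 signals were -5.57, -4.47, -6.48 and -6.22 in WT and -0.98, -0.74, 0.22 and -0.46 in KO mice. No WT array was well above background here, so only a bound can be given: the processed KO signal was at least 13.7-fold higher. The bound holds for the processed signal only, since normexp gave this probe a log2 difference of 2.01. For that bound, each WT value was first raised, where it was lower, to the dimmest signal on its array that still counted as well above background. The fitted difference of this probe, 5.19 (SE 0.44), was computed from the WT values before they were raised and is no bound.

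The size of the *Pnpla3* difference moved with the processing, and KO remained the higher genotype in each setting that gave a value. Settings that change only the filter or the fit cannot move this difference. Before background removal, the median spot intensity of the first probe was 56, 61, 59 and 56.5 in WT and 165, 179, 179 and 125.5 in KO mice, over a local background of 26 to 31. With normexp background correction of the median spot signal and an offset of 50, in place of the processed signal, the difference was 1.26 at the first probe and 2.01 at the second. Raising dim values on each array to the lowest signal well above background gave 2.90 and 3.78. Averaging both probes gave 4.39.

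*Pnpla5* encodes another triglyceride hydrolase found on lipid droplets. Its only probe had log2 signals of -3.32, -3.96, -3.22 and -3.62 in WT mice and -0.16, -0.36, -0.73 and -0.60 in KO mice. Every KO mouse was far above every WT mouse. Means were -3.53 ± 0.34 in WT and -0.47 ± 0.25 in KO liver, a difference of 3.06 (SE 0.19) or 8.36-fold. Unlike *Pnpla3*, this probe was well above background on all 8 arrays, at intensities of 28.4, 18.5, 33.3 and 21.3 in WT and 266, 215, 177 and 182 in KO liver. The WT intensities were nevertheless low, and with normexp the difference was 1.61. The order of the mice within a genotype was not that of *Pnpla3*: KO mouse 1 was the highest of the KO mice for *Pnpla5*, and KO mouse 3 for *Pnpla3*.

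**Figure D2:**
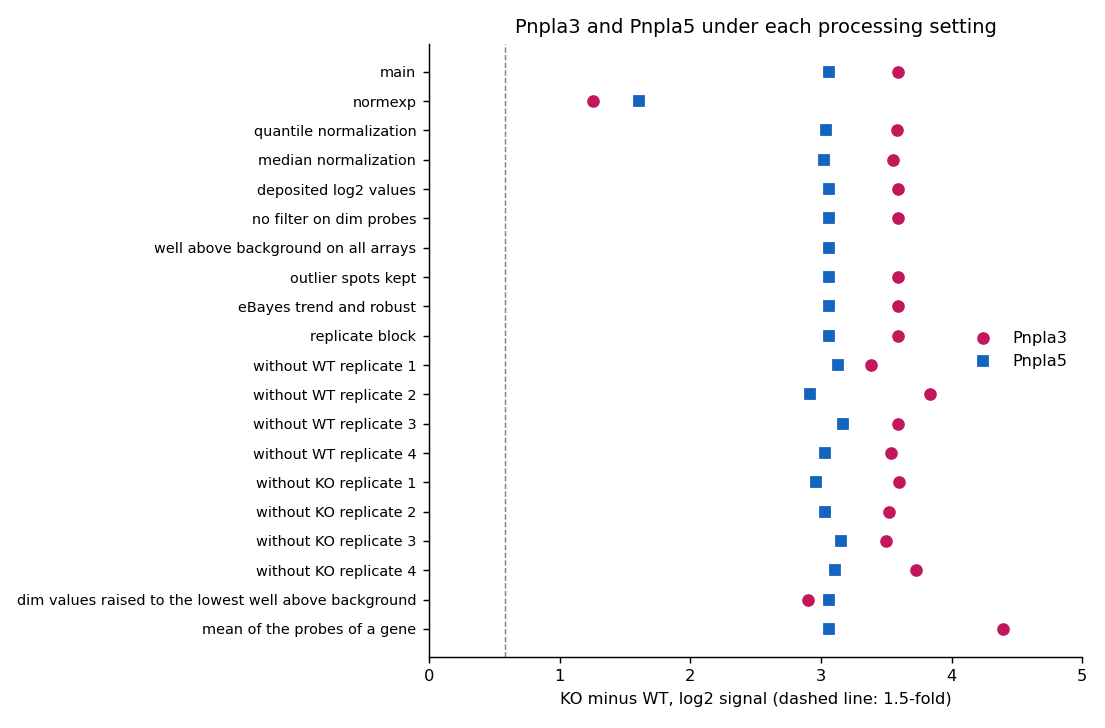
KO minus WT difference in log2 signal (horizontal axis) of *Pnpla3* (circles) and *Pnpla5* (squares) under each processing setting, with the 1.5-fold line dashed. All values lie to the right of that line, and normexp gives the lowest, 1.26 and 1.61. *Pnpla3* has no value where every array had to be well above background. No filter, the trend and robust options and the replicate block cannot move either difference, and keeping outlier spots did not. For *Pnpla5*, with a single probe and no dim value, the stricter filter, the probe mean and raised dim values cannot move it either.

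The genes whose log2 signals over the 8 arrays ran most parallel to *Pnpla3* were *Tlcd1* (Pearson's r = 0.992), *Chrna4* (0.988), *Fasn* (0.988), *Thrsp* (0.987) and *3110045C21Rik* (0.987). *Fasn* encodes fatty acid synthase, and *Thrsp* a protein of fatty acid synthesis. For *Pnpla5* they were *Apof* (0.989), *Acly* (0.986), *Olfml1* (0.984), *Dock6* (0.982) and *H2al1e* (0.974), of which *Acly* encodes ATP citrate lyase, the source of cytosolic acetyl-CoA. The 2 lists of 5 shared no gene. The coefficients are a description over 2 genotypes of 4 mice and are set largely by the gap between the genotypes. The genes on the lists differed widely in the size of that gap, from 0.18 for *Apof* to 4.52 for *Chrna4*.

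The genes that flank the pair were looked up after their values were seen, in chromosome order and 5 on each side. Of the 12 genes in this stretch, 8 could be tested. *Samm50*, next to *Pnpla3*, encodes a subunit of the sorting machinery of the mitochondrial outer membrane. Its log2 signals were 3.50, 3.54, 3.60 and 3.66 in WT and 3.97, 3.96, 4.16 and 4.02 in KO mice. The groups did not overlap, and the difference of 0.45 (SE 0.07, limma adjusted p = 0.0503) was under 1.5-fold. *Sult4a1*, next to *Pnpla5*, differed by 0.55 (SE 0.25, limma adjusted p = 0.395) and was dim. The remaining tested neighbors were *Ttll12* with 0.22, *Mpped1* with 0.19, *Parvb* with 0.16 and *Parvg* with -0.33, and none of them was called (limma adjusted p of 0.363 to 0.697). *Scube1*, *Efcab6*, *Shisal1* and *Rtl6* were too dim to test.

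**Figure D3:**
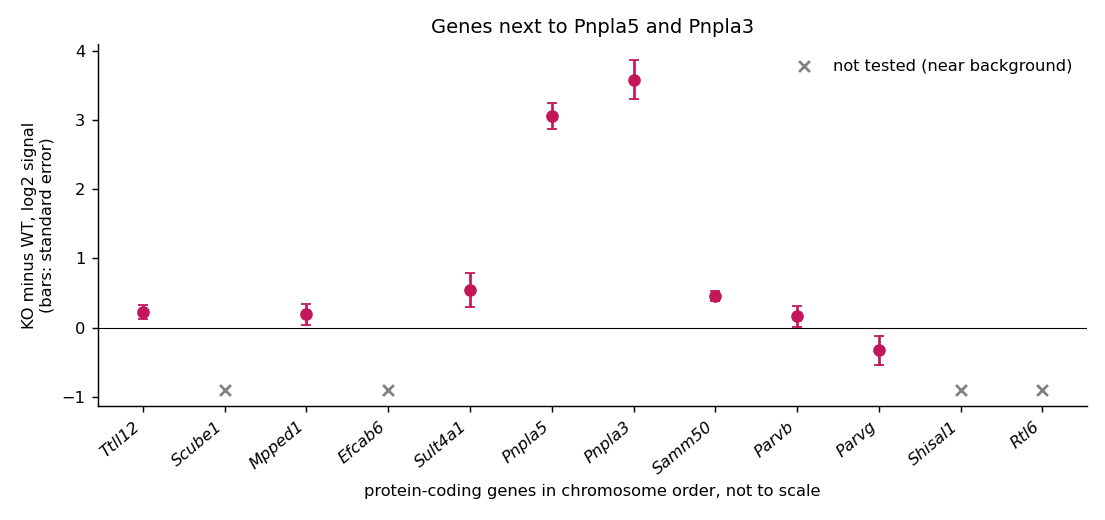
KO minus WT difference in log2 signal (vertical axis, bars are standard errors of the fit) of the protein-coding genes around *Pnpla5* and *Pnpla3*, in chromosome order and not to scale; crosses mark genes too dim to test, at no value. The difference was 3.06 for *Pnpla5* and 3.59 for *Pnpla3*, against 0.55 for *Sult4a1* and 0.45 for *Samm50* on either side.

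*Pnpla2* encodes adipose triglyceride lipase, which takes the first fatty acid from a triglyceride. Its log2 signals were 3.53, 3.75, 3.97 and 4.05 in WT and 3.21, 3.56, 3.26 and 3.56 in KO mice. KO mice 1 and 3 lay below all WT mice, but the groups overlapped, since KO mice 2 and 4 were above WT mouse 1. The means of 3.83 ± 0.23 and 3.40 ± 0.19 differed by -0.43 (SE 0.14), with WT 1.34-fold higher. This was the largest negative difference among the 10 genes, opposite in sign to that of *Pnpla3* and *Pnpla5*, and it was not called.

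The other enzymes of this cytosolic route gave small differences. *Lipe* encodes hormone-sensitive lipase, which cleaves diglycerides and is known mainly from adipose tissue. Its log2 signals of -2.87, -2.34, -2.19 and -2.59 in WT and -2.92, -2.39, -2.29 and -2.13 in KO mice overlapped over most of their range. The difference was 0.07 (SE 0.20), and it was -0.06 without WT mouse 1 and -0.03 without KO mouse 4. *Mgll* encodes monoacylglycerol lipase, which frees the last fatty acid and also degrades an endocannabinoid. At its brighter probe it read 5.06, 4.59, 4.82 and 5.05 in WT and 5.04, 5.32, 5.18 and 5.40 in KO mice. Only KO mouse 1 fell within the WT range, below WT mice 1 and 4. Means were 4.88 ± 0.22 and 5.24 ± 0.16, a difference of 0.36 (SE 0.13) or 1.28-fold. A second probe, assigned to another *Mgll* transcript, gave 2.87, 2.47, 2.68 and 2.75 in WT and 2.88, 3.16, 3.02 and 3.17 in KO mice. There the groups were just separate, with the same difference of 0.36 (SE 0.11).

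*Pnpla6* and *Pnpla7* encode relatives that remove fatty acids from phosphatidylcholine and lysophosphatidylcholine and so lead to glycerophosphocholine. *Pnpla7* read 5.44, 5.30, 5.28 and 5.39 in WT and 5.80, 5.67, 5.70 and 5.72 in KO mice. The spread within a genotype was small and every KO mouse was above every WT mouse. Means were 5.35 ± 0.08 and 5.72 ± 0.06, a difference of 0.37 (SE 0.07) or 1.29-fold, under the fold set for a call. *Pnpla6*, or neuropathy target esterase, read -1.68, -1.46, -1.67 and -2.24 in WT and -1.67, -2.15, -1.52 and -1.99 in KO mice. Its groups overlapped fully, with a difference of -0.07 (SE 0.20) that was 0.03 without WT mouse 2 and 0.04 without KO mouse 2. The difference between these paired enzymes was not tested.

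*Pnpla8* encodes a calcium-independent phospholipase A2 of mitochondria and peroxisomes. Its brighter probe read 4.24, 4.11, 4.28 and 4.42 in WT and 4.09, 4.10, 4.23 and 4.23 in KO mice, which overlapped. The difference was -0.10 (SE 0.08). At the second probe, with 1.37, 1.34, 1.38 and 1.39 in WT and 1.22, 1.30, 1.23 and 1.30 in KO mice, every KO mouse was below every WT mouse. The difference there was of the same size, -0.11 (SE 0.06), and the probes differed in the spread within genotypes.

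*Lipa* encodes lysosomal acid lipase, which hydrolyzes the cholesteryl esters and triglycerides delivered to lysosomes. It read 3.76, 3.74, 3.64 and 3.74 in WT and 3.98, 4.00, 4.06 and 4.11 in KO mice. The groups were separate, and the within-genotype SD of 0.056 was the smallest of the 10 genes. Means were 3.72 ± 0.05 and 4.04 ± 0.06, a difference of 0.32 (SE 0.06) or 1.25-fold. *Lipc* encodes hepatic lipase, which hepatocytes secrete and which acts on remnant lipoproteins and HDL. It read 2.04, 2.09, 2.23 and 1.85 in WT and 1.97, 2.16, 2.01 and 2.13 in KO mice. These ranges overlapped fully, and the difference was 0.02 (SE 0.09), the smallest in size among the 10, and changed sign with median normalization (-0.02) and without WT mouse 4 (-0.05), KO mouse 2 or KO mouse 4.

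**Figure D4:**
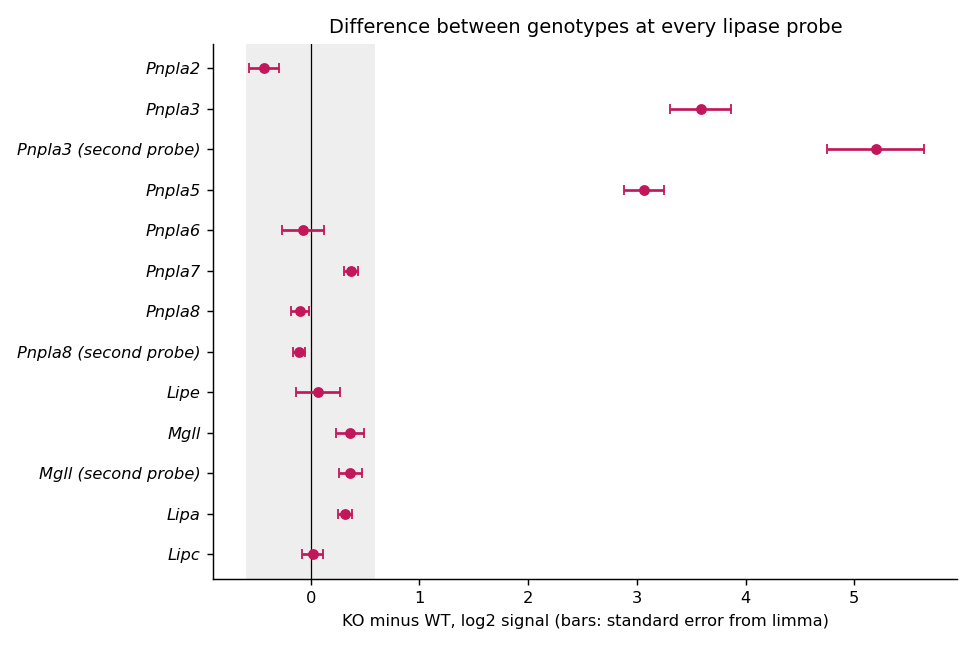
KO minus WT difference in log2 signal (horizontal axis) at each of the 13 lipase probes, with standard errors of the fit as bars and differences under 1.5-fold shaded. All 3 probes of *Pnpla3* and *Pnpla5* lie at 3.06 or above, though WT values of *Pnpla3* were near background, and the other 10 probes lie between -0.43 and 0.37.

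Genes around these enzymes were read from 7 hand-written lists, each gene at its brightest tested probe. For these lists and the cell markers, the share of all tested genes at an unadjusted p below 0.05 is not given. Nothing is read from the counts at that threshold. Proteins that hold, shape or regulate lipid droplets had 13 of 15 genes tested and 0 called, with 0 at an unadjusted p below 0.05 and a median difference of 0.04. The lowest was *Plin4*, a droplet coat protein, with -0.50 (SE 0.28), and the highest *Fitm1*, of droplet formation, with 0.18 (SE 0.21). *Abhd5*, the coactivator of PNPLA2, differed by 0.17 (SE 0.26), and *G0s2*, its inhibitor, by 0.01 (SE 0.51). The droplet coat gene *Plin2* differed by 0.09 (SE 0.11). *Plin1* and *Cidea*, both typical of adipocytes, were not well above background on any array.

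Further lipases and esterases had 27 of 35 genes tested and 0 called, with 3 at an unadjusted p below 0.05 and a median of 0.03. Without a minimum fold, 2 rose. *Lpl*, the lipoprotein lipase of capillary walls, read 2.51, 2.47, 2.50 and 2.44 in WT and 2.97, 2.97, 3.31 and 2.83 in KO mice, with no overlap and a difference of 0.54 (SE 0.10, limma adjusted p = 0.0815). *Lpl* was called higher with the mean of its probes and without KO mouse 4. *Ces2e*, a carboxylesterase, went from 5.61 ± 0.10 to 6.05 ± 0.19, a difference of 0.44 (SE 0.10, limma adjusted p = 0.133). The extremes were *Lipn* with -0.54 (SE 0.41) and *Lipg*, endothelial lipase, with 0.77 (SE 0.38), and neither was called. *Pnpla1*, the member of the patatin-like family that serves the skin barrier, differed by 0.17 (SE 0.18).

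Proteins that control lipases in the blood had 12 of 12 tested, 0 called, 1 at an unadjusted p below 0.05 and a median of -0.03. *Apoc2*, the activator of lipoprotein lipase, had the highest difference, 0.36 (SE 0.10, limma adjusted p = 0.188), and passed only without a minimum fold. *Sel1l* had the lowest, -0.13 (SE 0.19). The lysosomal list, which holds the membrane, acid and transport proteins that surround LIPA, had 14 of 14 tested, 0 called and 1 at an unadjusted p below 0.05. Its median was -0.01. The lowest was *Tfe3*, a transcription factor of lysosomal genes, with -0.16 (SE 0.08), and the highest *Npc2*, a cholesterol carrier, with 0.18 (SE 0.09).

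The list for glycerophosphocholine and choline had 8 of 9 tested, with 0 higher and 1 lower. It had 1 at an unadjusted p below 0.05 and a median of -0.07. *Gdpd1*, of the glycerophosphodiester phosphodiesterase family, read -2.85, -2.55, -2.62 and -2.34 in WT and -3.04, -3.48, -2.89 and -3.33 in KO mice. It fell by 0.59 (SE 0.15, limma adjusted p = 0.158) with no overlap. The call was lost when any 1 of WT mice 2, 3 and 4 or KO mice 1, 2 and 4 was left out, with normexp and with no filter on dim probes. *Pcyt1a*, of phosphatidylcholine synthesis, had the highest difference, 0.13 (SE 0.07).

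Transcription factors of lipid genes and their regulators had 14 of 14 tested, with 1 higher, 0 lower, 4 at an unadjusted p below 0.05 and a median of 0.02. *Srebf1*, which encodes the sterol regulatory element binding protein of fatty acid synthesis, read 6.08, 6.72, 6.63 and 6.14 in WT and 6.89, 6.87, 7.42 and 7.47 in KO mice. It rose by 0.77 (SE 0.20, limma adjusted p = 0.168) with no overlap, and the call was lost when any 1 of the 8 arrays was left out. *Insig1*, a sterol-sensing retention protein of the endoplasmic reticulum, had a larger difference of 1.12 (SE 0.33), with no overlap of the groups and an adjusted p of 0.207 in limma. It was called higher with normexp, quantile normalization, the trend and robust options, a replicate block, the mean of its probes and without WT mouse 1. *Ppargc1a*, with 0.60 (SE 0.19, limma adjusted p = 0.236), and *Rxra*, with -0.16 (SE 0.07), were also at an unadjusted p below 0.05. *Ppargc1a* was called higher without WT mouse 4 and without KO mouse 4. *Srebf2* had the lowest, -0.20 (SE 0.16). Genes that follow feeding and fasting had 12 of 12 tested, 0 called, 1 at an unadjusted p below 0.05 and a median of 0.00. They ran from -0.24 for *Txnip* to 0.76 for *Igfbp1*, with a standard error of 0.59 for the latter. The gene with an unadjusted p below 0.05 was *Pdk4*, with 0.73 (SE 0.24, limma adjusted p = 0.260). *Pdk4* was called higher without WT mouse 4. Whether the genotypes differed in feeding state was not tested.

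**Figure D5:**
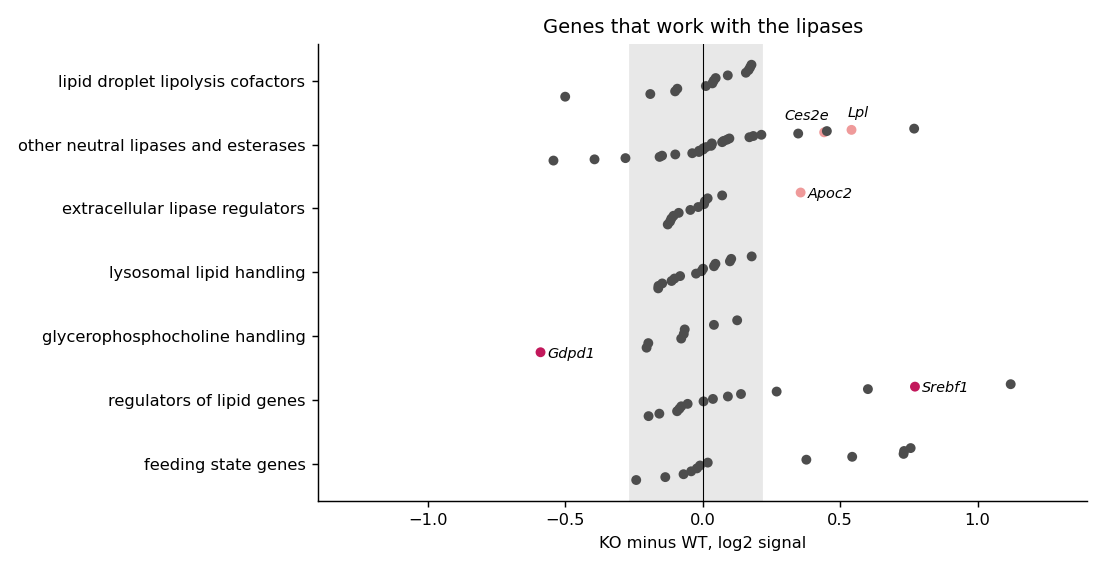
KO minus WT difference in log2 signal (horizontal axis) of each tested gene in 7 lists around the lipases; red points were called, pink points passed an adjusted p of 0.2 without a minimum fold, and the shading spans the 10th to 90th percentile of all tested genes. *Srebf1* at 0.77 and *Gdpd1* at -0.59 are the called genes.

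Markers of other cells were read beside these results, since *Lipe* and *Pnpla2* are high in adipocytes and *Lipa* in macrophages. Of 7 adipocyte markers, 2 were tested and 0 called (0 at an unadjusted p below 0.05). *Adipoq*, *Retn*, *Plin1* and *Cidea* were not well above background on any array. *Cfd* was well above it on 2 WT and 2 KO arrays, with log2 signals from -6.20 to -1.98 over all arrays. The summed level was 4.87 to 6.95 in WT and 5.35 to 6.37 in KO mice. That sum mostly follows *Fabp4*, with log2 means of 2.35 in WT and 2.34 in KO liver, and the other tested gene was *Lep*. Of 7 markers of Kupffer cells and macrophages, *Marco*, a scavenger receptor, fell by 1.22 (SE 0.25, limma adjusted p = 0.0981) and the other 6 were not called. The summed level of these ran from 61.9 to 111 in WT and from 51.2 to 85.3 in KO mice, and the part of this in the *Lipa* values was not tested. Stellate cell markers had 6 of 6 tested and 0 called (1 at an unadjusted p below 0.05), with sums of 87.4 to 106 and 86.4 to 95.3. Pancreatic acinar markers had 2 of 6 tested and 0 called (1 at an unadjusted p below 0.05), with sums of 33.1 to 46.3 in WT and 19.2 to 33.1 in KO mice. These sums mostly follow 1 gene, *Cela1*, which differed by -0.54 (SE 0.20) with every KO mouse below every WT mouse. The other tested gene, *Ctrb1*, differed by -0.15 (SE 0.12). No array had *Cpa1*, *Cpb1*, *Prss2* or the pancreatic lipase *Pnlip* well above background. Neutrophil markers had 3 of 4 tested and 0 called (0 at an unadjusted p below 0.05), with sums of 1.51 to 3.95 and 0.790 to 2.19.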

How the data were processed

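Liver RNA of 4 *Agpat3* WT and 4 *Agpat3* KO mice was measured with one-color Agilent arrays. The files deposited by the authors are the scanner output of each array from Feature Extraction 10.7.1.1, which holds for each spot a processed signal (a linear fluorescence intensity after background correction), the median spot intensity and the median local background. They also deposited a table of log2 values, which matched the log2 of the processed signal minus the 75th percentile of the array to a median offset of -0.0085 to -0.0046 per array, with single probes up to 0.54 log2 units apart. That percentile was 261 to 309, the local background was 27 to 32 at the median, and 29888 to 31892 probes per array were well above background. Outlier spots, 86 to 150 on an array, were left out, and none was saturated. Arrays have no sequencing depth, and their number limits the precision.

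Groups follow the labelled genotype. The design text names 4 mice of each genotype, so the replicates were taken as separate animals. From the processed signal, log2 values relative to the 75th percentile were computed, the spots of a probe were averaged, and a probe was kept if 1 genotype or both had it well above background on each of 4 arrays. The fit used limma 3.58.1 (lmFit, eBayes) under R 4.3.3 (genotype only, two-sided, Benjamini-Hochberg over 29069 probes), after a test on simulated data. Calls needed an adjusted p under 0.2 and a fold change over 1.5, after the legend of the study's volcano plot, where it is unclear if p was adjusted, and the array test is not given in the sources used here. Probes were named through transcript accessions in a RefSeq table of GRCm38.p6, which matched 32989 of the 56605 probes. The scanner output names an older mouse build, so no probe coordinates are given. A gene was read from its brightest tested probe, and whether a probe also binds RNA of related genes was not tested.

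The 10 genes and the gene lists were chosen with earlier results of these data known. The text names all 10 genes, *Agpat3*, the called genes and the highest and lowest of each list, and the 5 genes most parallel to *Pnpla3* and to *Pnpla5*. The neighbors on the chromosome, the marker genes named singly and the promoter motifs were chosen after values were seen. So were *Abhd5*, *G0s2*, *Plin2*, *Lpl*, *Ces2e*, *Pnpla1*, *Ppargc1a*, *Rxra* and *Pdk4*. No test of the 10 genes is given as evidence. Alternatives were normexp with an offset of 50 on the median spot signal (the files hold no mean spot signal), the deposited log2 values, median and quantile normalization, no filter or a stricter one, outlier spots kept, trend and robust options of eBayes, a replicate block, each array left out, other thresholds, probes averaged by gene and, added after the data were seen, dim values raised to the lowest signal well above background. Figures were drawn with matplotlib 3.10.9.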

Additional observations from a re-analysis of the deposited data

Results flagged for a closer look

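*Lipa* in WT mouse 3 stood apart from the other WT mice, at a log2 signal of 3.64 where the others lay between 3.74 and 3.76. It was the only such case among 26 groups of 4 values examined for the lipase probes, and chance alone gives such a case in about 5% of groups. The value lies on the side away from the KO mice, and without this mouse the *Lipa* difference was 0.29 on the log2 scale against 0.32 with it.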

How the results depend on the processing

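The counts of calls and the differences of the 10 lipase genes were recomputed under the alternatives. *Agpat3*, the neighbors, the markers and the correlations were not. Calls of lipase genes are a description, since the genes were selected on this contrast. When probes had to be well above background on all arrays, *Pnpla3* could not be fitted and 1 lipase gene was called higher, and without a minimum fold 4 were. The *Pnpla3* difference of 3.59 became 1.26 with normexp, 4.39 as the mean of its probes and 2.90 with dim values raised, a setting chosen after seeing the data. *Pnpla5* became 1.61 with normexp. The normexp setting adds 50 to every corrected signal, while the WT median spots of *Pnpla5* read 57 to 74.5 over a local background of 27 to 32. The part of the offset in these sizes was not tested. Leaving out 1 array gave 3.38 to 3.84 for *Pnpla3*, 2.92 to 3.17 for *Pnpla5*, -0.53 to -0.35 for *Pnpla2*, 0.34 to 0.40 for *Pnpla7*, 0.29 to 0.34 for *Lipa*, 0.26 to 0.42 for *Mgll*, -0.15 to -0.05 for *Pnpla8*, -0.23 to 0.04 for *Pnpla6*, -0.06 to 0.23 for *Lipe* and -0.05 to 0.08 for *Lipc*, with 2 lipase genes called higher and 0 lower each time.

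Over all probes, 273 were called higher and 211 lower. These were 123 and 132 with no filter, 82 and 35 at an adjusted p under 0.05, 555 and 635 without a minimum fold, and 65 lower with normexp (183 higher) and 126 lower when every array had to be above background. With median normalization they were 257 and 270. Leaving out 1 array gave 153 to 334 higher (lowest without WT mouse 3 or KO mouse 2) and 98 to 275 lower (lowest without WT mouse 3, then 103 without KO mouse 2 and 109 without WT mouse 2). In the related lists, with 1 higher and 1 lower, the counts were 0 and 0 with no filter or at an adjusted p under 0.05. Higher calls were 2 with normexp, quantile normalization or trend and robust options, 4 without a minimum fold and 3 by the mean of the probes, and lower calls were 0 with normexp. Leaving out 1 array gave 0 to 3 higher and 0 to 1 lower.

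Same-numbered mice of the genotypes deviated together with correlations of 0.33, -0.11, 0.10 and 0.32 for numbers 1 to 4, so the numbers were not taken as pairs. Only numbers 1 and 4 correlated best with each other. Arrays of the same number sat in the same slide column, so number and column cannot be told apart. The replicate block gave 327 probes higher and 265 lower, 2 lipase genes higher and 0 lower, and 2 genes of the related lists higher and 0 lower (*Gdpd1* was lost and *Insig1* gained). With 1 mouse of each genotype per number, the block cannot move a mean difference. *Pnpla3* was well above background on 1 of 4 WT arrays.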
